A study of Mus musculus with 5 samples.

Results

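Genes of putrescine breakdown and GABA handling were followed in primary mouse astrocyte cultures: the amine oxidases Maob and Maoa, the aldehyde dehydrogenases Aldh1a1, Aldh9a1, Aldh2 and Aldh7a1, the GABA-degrading enzyme Abat, the GABA-making enzyme Gad1 and the GABA transporter Slc6a11. They were chosen by name, and 9 of 9 were found among the 18783 genes of the authors' deposited table. The study asked how amyloid-β (Aβ) alters astrocytes and what inhibition of ornithine decarboxylase does to the Aβ-treated cells. Cultures came from C57BL/6 pups of postnatal day 0 to 1, were grown with 10% horse serum and 10% fetal bovine serum, and were harvested on day 12 in vitro. Control cultures were naive (2 libraries). The Aβ cultures received 1 µM Aβ for 5 days from day 7 in vitro (2 libraries). The Aβ+DFMO culture received 1 µM Aβ with 50 µM DFMO, an irreversible inhibitor of ornithine decarboxylase, for the same time (1 library). No group with DFMO alone was analysed here. Whether 2 libraries of a group stem from separate cultures, and how many pups were pooled, is not stated in the labels, so the spread behind the p-values may be technical.

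Putrescine is the diamine made by ornithine decarboxylase. In astrocytes it can be acetylated, oxidised by monoamine oxidase B on the outer mitochondrial membrane to an aldehyde, and carried on by an aldehyde dehydrogenase towards GABA, the main inhibitory transmitter of the brain. This route lets astrocytes make GABA without glutamate decarboxylase, the enzyme that neurons use. GABA is removed by transporters at the plasma membrane and is broken down in mitochondria by GABA transaminase.

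For each gene the deposited table gives a normalized mean per group without an error, so the libraries of a group cannot be compared gene by gene. The Control and Aβ libraries held 46886111 to 105544237 reads, 9.72 to 21.9 times the 4825677 of the Aβ+DFMO library. In that single library 1 read was worth about 7.45 normalized units. All 9 astrocyte markers were measured, led by Gfap at an authors' mean of 57209 in Control. Other cell types were present: the summed authors' means of 7 microglia and macrophage markers were 11960 in Control, 6504 in Aβ and 4506 in Aβ+DFMO, and those of 8 oligodendrocyte lineage markers 39636.5, 39637 and 21418. By the authors' DESeq2 test 4 of the 7 microglia and macrophage markers fell in Aβ against Control, and 6 of the 8 oligodendrocyte lineage markers fell in Aβ+DFMO against Aβ, where 5.18% of all genes were called lower. With the trend of the ratios with transcript GC content, the share of G and C bases, removed, 4 of the 8 passed. Of all genes 1.57% then passed in either direction. The sums in Control, Aβ and Aβ+DFMO were 80064, 82452 and 95843 for 7 fibroblast, meninges and mural cell markers. Among these Acta2 had an authors' mean of 65705.5 in Control, above that of Gfap. For 5 measured markers of neurons in general the sums were 19713, 19228 and 22648. Of 9 markers of GABAergic neurons 5 were measured, with sums of 374.9, 520.1 and 372.6. Slc32a1, Dlx5, Sst and Lhx6 were absent from the table, and 1 of the 5, Npy, rose in Aβ against Control. In Aβ against Control 0.287% of all genes were called in either direction, the share to set beside the microglia and Npy counts. In such mixed cultures fewer cells of a type and less RNA per cell cannot be told apart.

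The coding stretches around the cysteine on which each enzyme depends are shown here for both monoamine oxidases and for 3 of the dehydrogenases, because base composition recurs in the second comparison. Each runs 5′ to 3′ on the coding strand over 60 bases of the spliced mRNA in GRCm38 (GENCODE), with the cysteine codon in capitals. In the monoamine oxidases this cysteine holds the flavin cofactor, and in the dehydrogenases it attacks the aldehyde.
Maoa: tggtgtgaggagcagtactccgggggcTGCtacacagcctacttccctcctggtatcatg
Maob: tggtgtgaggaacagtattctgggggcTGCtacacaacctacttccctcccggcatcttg
Aldh1a1: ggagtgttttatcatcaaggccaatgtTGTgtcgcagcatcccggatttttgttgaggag
Aldh9a1: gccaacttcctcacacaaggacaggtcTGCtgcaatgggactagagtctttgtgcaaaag
Aldh2: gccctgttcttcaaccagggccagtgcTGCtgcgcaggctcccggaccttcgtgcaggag
The Maoa stretch is codon 406 with its flanks in exon 12 of 15 (chrX:16682225-16682284, plus strand) and the Maob stretch is codon 397 in exon 12 of 15 (chrX:16716400-16716459, minus strand). They share 53 of 60 bases, and the whole coding sequences 71.3% of their aligned bases. Codon 303 of Aldh1a1 lies in exon 12 of 16 (chr19:20630695-20630754, plus strand) and codon 321 of Aldh2 in exon 9 of 13 (chr5:121572772-121572831, minus strand). Codon 312 of Aldh9a1 lies in exon 7 of 11, and its stretch crosses an exon junction (chr1:167357427-167361438, plus strand). The Aldh1a1 and Aldh2 stretches share 39 of 60 bases, but 46.7% of the bases are G or C in Aldh1a1 and 66.7% in Aldh2. Over the third bases of all codons the share of G or C was 47.9% in Aldh1a1, 60.4% in Aldh9a1 and 74.4% in Aldh2, against 46.4% in Maoa and 47.7% in Maob. No stretch is shown for Aldh7a1, whose transcript is 50.3% G or C against 54.8% for that of Aldh2.

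Levels of the 9 genes spanned more than 2 orders of magnitude when divided by transcript length. In Control, Aldh1a1, which oxidises retinaldehyde and other aldehydes, led with an authors' mean of 2222 normalized units per kb of transcript. Below it came Abat at 1071, Aldh7a1 at 861, Maoa at 851, Aldh2 at 636 and Aldh9a1 at 405 per kb. Maob followed at 99.2, Slc6a11 at 29.6 and Gad1 at 9.03 per kb. Gad1 thus lay at percentile 13.1 of all genes per kb, Maob at 40.0 and Aldh1a1 at 95.1. Maob, the oxidase of the acetylputrescine route, stood far below its neighbour Maoa: the Maoa level per kb was 8.57 times that of Maob in Control, 9.11 times in Aβ and 10.7 times in Aβ+DFMO. The order was the same in Aβ, and in Aβ+DFMO only Maoa and Aldh7a1 exchanged places. Divided by the length of all exons of a gene instead of its main transcript, Maoa came after Aldh1a1 and Abat came below Aldh7a1 in Control, so the order among Abat, Aldh7a1 and Maoa depends on the length used. No spread of a group mean is given, so neighbours in the order were not tested.

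**Figure D1:**
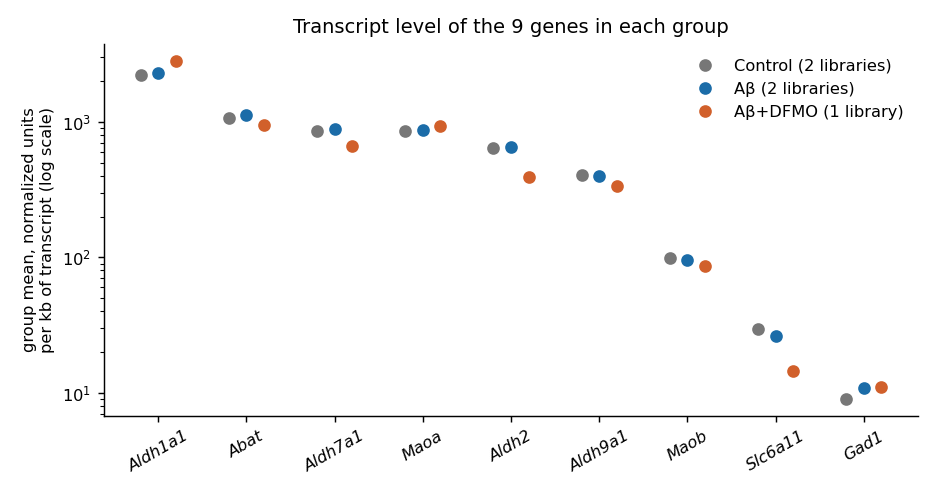
Group means of the 9 genes in normalized units per kb of transcript on a log axis, with 1 point per group and no error bars since the table gives none. Aldh1a1 is highest and Gad1 lowest in each group. The Aβ+DFMO point is the lowest of its gene for Aldh2, Aldh7a1, Slc6a11, Abat, Aldh9a1 and Maob.

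The first comparison asks whether Aβ changes these transcripts. None of the 9 was called in Aβ against Control by the authors' DESeq2 test at an adjusted p under 0.05, and none had an unadjusted p under 0.05. In all, 54 genes were called, 0.287% of 18783, and 324 had an unadjusted p under 0.05. Of the 9 log2 ratios 6 were above 0 and 3 below, with a median of 0.04 against 0.00238 for all genes. The adjusted p was 1.00 for each of the 9 in the authors' deposited table.

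The monoamine oxidases were measured with unequal precision. Maob had an authors' mean of 239.3 in Control and 230.7 in Aβ. Its log2 ratio in the authors' deposited table was −0.05 (implied standard error 0.217), and the 95% interval of the change in Aβ ran from −28.2% to 29.6%. Maoa, which prefers serotonin and noradrenaline as substrates, had 3546 and 3634, a log2 ratio of 0.04 in the authors' deposited table with an interval from −0.15 to 0.22. Maoa lies on chromosome X at 16619698 to 16687818 on the plus strand and Maob at 16709282 to 16817366 on the minus strand in GRCm38, so the pair faces each other across 21.5 kb.

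The aldehyde dehydrogenases were close to level in Aβ. Aldh1a1 had an authors' mean of 5239 in Control and 5414 in Aβ, and Aldh9a1, which oxidises aminobutyraldehyde to GABA, 1149 and 1119. Aldh2, the mitochondrial enzyme that clears acetaldehyde and aldehydes of lipid peroxidation, had 2459 and 2513. Aldh7a1, an enzyme of lysine breakdown, had 3556 and 3677. The 4 log2 ratios lay between −0.04 (Aldh9a1) and 0.05 (Aldh7a1 and Aldh1a1) in the authors' deposited table. Aldh1a1 had the widest interval of the 4, from −0.36 to 0.46.

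Abat had the smallest unadjusted p of the 9 genes in this comparison, 0.381 in the authors' deposited table. Its authors' mean was 4965 in Control and 5226 in Aβ, a log2 ratio of 0.07 with an interval from −0.09 to 0.24. Gad1, a marker of GABAergic neurons, had only 30.3 and 36.3 and a log2 ratio of 0.26 in the authors' deposited table. Slc6a11, the GABA transporter GAT-3 of astrocyte processes, had 122.2 and 107.9 and a log2 ratio of −0.18 there. For these scarce transcripts the intervals ran from −0.82 to 1.35 and from −0.79 to 0.44. Small changes of either sign were thus not detectable at this precision. At the p that the weakest called gene of the table reached, Abat would have needed a log2 ratio of 0.32, Maob 0.83 and Gad1 2.10.

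**Figure D2:**
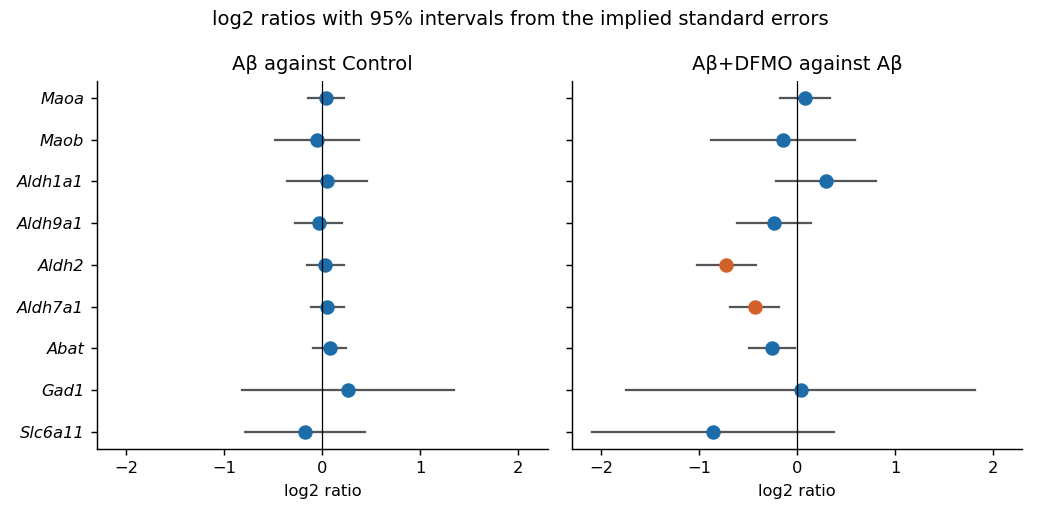
log2 ratios of the 9 genes in both comparisons, with 95% intervals computed from the implied standard errors (lines). Orange points passed an adjusted p under 0.05 in the authors' deposited table, and only Aldh2 and Aldh7a1 did so, both lower in Aβ+DFMO than in Aβ.

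The second comparison asks what DFMO changes in Aβ-treated cultures. It shares the Aβ libraries with the first. In the single Aβ+DFMO library, 2 of the 9 genes fell, both dehydrogenases, and none rose. Neither call held once the trend with transcript GC content was removed, where the count was 0 of 9. By the authors' DESeq2 test 9.18% of all genes were called, 4% higher and 5.18% lower. The median log2 ratio of the 9 was −0.23 against 0.00796 for all genes, and 7 of the 9 had a mean of at least 200. Among genes with such a mean 17.6% were called when p-values were adjusted over them alone.

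Aldh2 fell from an authors' mean of 2513 in Aβ to 1520 in Aβ+DFMO, having been 2459 in Control. This is 39.5% less, a log2 ratio of −0.72 (implied standard error 0.154, adjusted p = 0.000184 in the authors' deposited table), with an interval from −1.03 to −0.42. Once the GC trend was removed the adjusted p was 0.165. Its log2 ratio was then −0.43, with an interval from −0.73 to −0.13. The Aβ+DFMO value of Aldh2 rested on about 204 reads, for which counting error alone gives an exact Poisson interval of 177.0 to 234.0 reads. Aldh2 lies on chromosome 5 at 121566027 to 121593824 on the minus strand in GRCm38. Its exons share 130 bases with Gm42879 on the opposite strand, whose authors' means of 6.93, 4.57 and 29.8 in Control, Aβ and Aβ+DFMO were far smaller than those of Aldh2.

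Aldh7a1 fell from 3677 in Aβ to 2725 in Aβ+DFMO and had been 3556 in Control. The log2 ratio was −0.43 (implied standard error 0.128, adjusted p = 0.0133 in the authors' deposited table), a loss of 25.9% with an interval from −0.68 to −0.18. Once the GC trend was removed the adjusted p was 0.134. Its log2 ratio was then −0.37, with an interval from −0.62 to −0.12. Aldh7a1 lies on chromosome 18 at 56509687 to 56572951 on the minus strand. It shares 300 exon bases with Phax on the plus strand, which had 1405 in Aβ and 1508 in Aβ+DFMO. The sources used here do not say whether counting used strand, so reads over the shared bases cannot be told apart.

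The other dehydrogenases did not pass. Aldh9a1 had 1119 in Aβ and 953.9 in Aβ+DFMO, a log2 ratio of −0.23 (implied standard error 0.192, adjusted p = 0.567 in the authors' deposited table). Aldh1a1 had 5414 and 6633, a log2 ratio of 0.29 with an interval from −0.22 to 0.80 and an adjusted p of 0.602 there. The dehydrogenases thus differed in sign, with Aldh1a1 at its highest value and Aldh2, Aldh7a1 and Aldh9a1 at their lowest in Aβ+DFMO. Aldh1a7, a close relative on the same chromosome, shares 91.6% of the aligned coding bases with Aldh1a1, so reads of the pair may have been exchanged. Aldh1a7 had authors' means of 462.2, 469.7 and 581.3 in Control, Aβ and Aβ+DFMO.

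Neither monoamine oxidase passed in Aβ+DFMO against Aβ. Maob had 230.7 in Aβ and 208.7 in Aβ+DFMO, a log2 ratio of −0.15 with an adjusted p of 0.900 in the authors' deposited table. The Aβ+DFMO value of Maob came from about 28 reads (18.6 to 40.5), and the interval of its change ran from −45.5% to 50.2%. Maoa had 3634 and 3845, a log2 ratio of 0.08 (implied standard error 0.129, adjusted p = 0.817 in the authors' deposited table). Its interval ran from −0.17 to 0.33.

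GABA breakdown, synthesis and uptake genes also gave no call. Abat had 5226 in Aβ and 4375 in Aβ+DFMO, a log2 ratio of −0.26 with an interval from −0.49 to −0.03. Its unadjusted p was 0.0299 and its adjusted p 0.173 in the authors' deposited table. Slc6a11 had 107.9 and 59.6, a log2 ratio of −0.86 that was larger in size than that of Aldh2, but it came from about 8 reads (3.45 to 15.8) and did not pass (adjusted p = 0.492 in the authors' deposited table). Gad1 had 36.3 and 37.3, the latter from about 5 reads, a log2 ratio of 0.04 with an interval from −1.75 to 1.82. Gad2, the other glutamate decarboxylase, had 22.9 in Aβ and 22.4 in Aβ+DFMO, the latter from about 3 reads, so small changes in either decarboxylase were not detectable at this depth. At the p of the weakest called gene of this comparison, Gad1 would have needed a log2 ratio of 2.58.

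For Aβ+DFMO against Control only ratios of group means are given, as a description without a test. The log2 ratio was −1.03 for Slc6a11, −0.69 for Aldh2, −0.38 for Aldh7a1, −0.27 for Aldh9a1, −0.20 for Maob and −0.18 for Abat. It was 0.12 for Maoa, 0.30 for Gad1 and 0.34 for Aldh1a1. Removing the GC trend turned Maoa to −0.17 and moved Maob to −0.38, Aldh1a1 to 0.19 and Aldh2 to −0.41. The Aβ+DFMO mean was thus below both the Control and the Aβ mean for Aldh2 and Aldh7a1, and also for Slc6a11, Aldh9a1, Maob and Abat. For Aldh2 and Aldh7a1 the Control and Aβ means lay close together.

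The 9 ratios of Aβ+DFMO against Aβ tended to be lower at a higher GC content of the transcripts, the share of bases that are G or C. The order was not strict. Maoa, with the lowest GC content at 40.4%, had a log2 ratio of 0.08, and Aldh2, with the highest at 54.8%, had −0.72. Slc6a11 at 53.9% had −0.86, and Aldh1a1 at 46.1% had 0.29. Over the 9 genes this gave a Spearman's rho of −0.85 and a Pearson's r of −0.81. In Aβ against Control the same measures gave −0.25 and −0.24. These are descriptions over genes measured in the same libraries, and they include Gad1 and Slc6a11 with about 5 and 8 reads in Aβ+DFMO. Over 11639 genes with a mean of at least 200, Spearman's rho was −0.71 in Aβ+DFMO against Aβ and 0.12 in Aβ against Control. Of these genes 2219 had a GC content of 53 to 57%, the range of Aldh2. Their median log2 ratio was −0.27 and 14.2% were called lower. Among the 2550 genes at 48 to 52%, where Aldh7a1, Aldh9a1 and Abat lie, the median was −0.02 and 3.02% were called lower. Slc6a11 and Gad1 have a GC content in these ranges, but their means were under 200, so they were not counted there. The median was 0.18 at 43 to 47%, the range of Maob and Aldh1a1, and 0.32 at 38 to 42%, the range of Maoa.

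With the GC trend taken out, none of the 9 genes passed in Aβ+DFMO against Aβ, where 1.57% of all genes did. The log2 ratio of Aldh2 moved from −0.72 to −0.43 (unadjusted p = 0.00489, adjusted p = 0.165, both from normal deviates of the authors' DESeq2 fit). That of Aldh7a1 moved from −0.43 to −0.37 (unadjusted p = 0.00336, adjusted p = 0.134). Maoa changed sign to −0.24 (unadjusted p = 0.0583, adjusted p = 0.587), and Gad1 to −0.0058. Maob then lay at −0.32, Aldh9a1 at −0.14, Abat at −0.21, Slc6a11 at −0.66 and Aldh1a1 at 0.14. Aldh1a1 was thus the single gene above the trend, and the median of the 9 was −0.24.

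**Figure D3:**
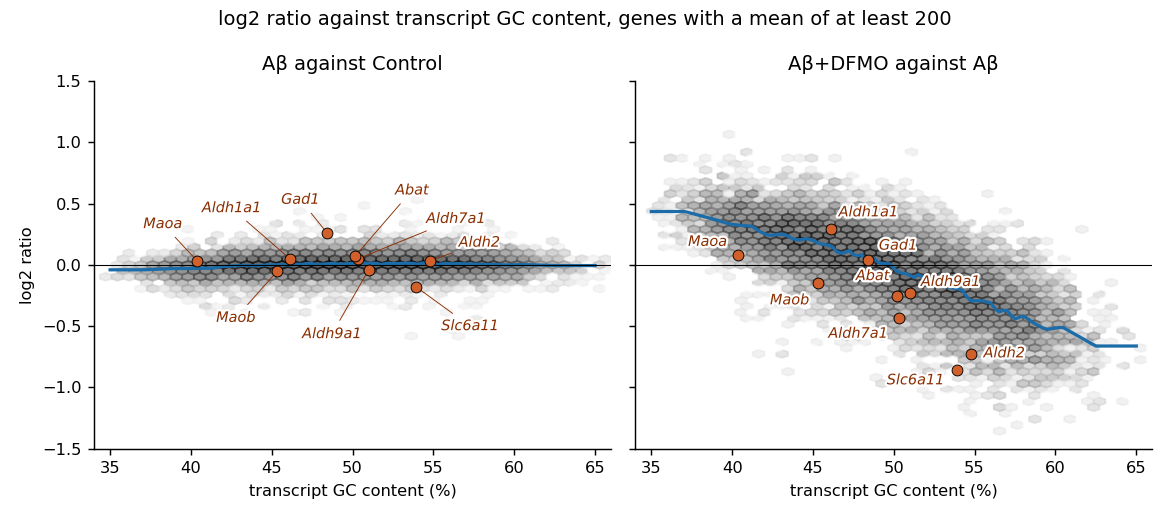
log2 ratio against transcript GC content for genes with a mean of at least 200 (grey, darker where more genes lie) with the running median (blue line) and the 9 genes (orange). In Aβ against Control the line is nearly flat, whereas in Aβ+DFMO against Aβ it falls with GC content and Aldh1a1 alone of the 9 lies above it. Genes beyond a log2 ratio of 1.5 in either direction are outside the axes.

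Genes around the route were read from lists chosen by function, naming up to 3 members with the smallest p in each comparison. In Aβ against Control none of the members of the 5 lists that follow was called in the authors' DESeq2 table. Counts in Aβ+DFMO against Aβ stand beside 9.18% of all genes called, and 1.57% once the GC trend was removed. Among 6 measured genes of putrescine supply and acetylputrescine, 1 rose and 1 fell in Aβ+DFMO against Aβ, with a median log2 ratio of −0.24. Odc1, which makes putrescine, rose by 0.40 and Smox, which oxidises spermine, fell by 1.16 on the log2 scale in the authors' deposited table. Azin2, an antizyme inhibitor, had −0.66 there (adjusted p = 0.0550). Without the GC trend Odc1 at 0.51 (adjusted p = 0.000211) and Smox at −0.91 (adjusted p = 0.0330) still passed. Agmat and Aoc1, the diamine oxidase of the direct route from putrescine, were absent from the table.

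Of 13 other aldehyde dehydrogenases 2 fell and none rose in Aβ+DFMO against Aβ, with a median of −0.22. Of all genes 5.18% were called lower and 9.18% in either direction. Among genes with a mean of at least 200, 17.6% were called in either direction, though some of the 13 lie below that mean. A list of 13 genes is too short to set this count apart from those shares, and it was not tested. Aldh1l1, a folate enzyme and astrocyte marker, fell by 0.68 and Aldh4a1, an enzyme of proline breakdown, by 0.62 on the log2 scale in the authors' deposited table. Aldh3b1 had −0.64 there (adjusted p = 0.121). Without the GC trend Aldh1l1 still passed at −0.44 (adjusted p = 0.0103) and Aldh4a1 did not (−0.24, adjusted p = 0.879). Of the 9 astrocyte markers, which include Aldh1l1, 3 fell and none rose, with a median of −0.26, and their summed authors' means were 159749 in Control, 159441 in Aβ and 126787 in Aβ+DFMO. Gfap went from 57495 in Aβ to 41383 in Aβ+DFMO, a log2 ratio of −0.47 in the authors' deposited table, and did not pass without the GC trend (−0.18, adjusted p = 0.703). The median of the 9 astrocyte markers without the GC trend was −0.35, larger in size than with it. Aldoc then lay at −0.87, Aldh1l1 at −0.44 and Slc1a3 at −0.36, so Gfap does not stand for the list. The part of the astrocyte markers in the lower dehydrogenase values was not tested.

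The GABA shunt, which returns the carbon of GABA to the citric acid cycle, had 11 measured genes, of which 1 rose and 1 fell in Aβ+DFMO against Aβ with a median of −0.0033. Over all genes 9.18% were called in that comparison. Glul, the glutamine synthetase of astrocytes, fell by 0.42 on the log2 scale in the authors' deposited table. Aldh5a1, which takes up the product of Abat by oxidising succinate semialdehyde, had −0.38 there (unadjusted p = 0.0312, adjusted p = 0.178). Without the GC trend Glul passed at −0.43 (adjusted p = 0.000465), and none of the 11 rose.

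In the list of GABA synthesis, vesicles, transport and release 5 of 9 genes were measured and 1 fell, Slc38a3, a glutamine transporter (log2 ratio −0.42, adjusted p = 0.00687 in the authors' deposited table). The share called over all genes in Aβ+DFMO against Aβ was 9.18%, with 5.18% lower. Slc6a12, Slc6a13 and the vesicular transporter gene Slc32a1 were absent from the table. Without the GC trend Slc38a3 did not pass (−0.13, adjusted p = 0.917). None of 14 measured GABA receptor genes was called in either comparison, with medians of −0.14 and −0.04. Without the GC trend the median in Aβ+DFMO against Aβ was −0.29, still with no call. The smallest p among them was that of Gabbr2, a subunit of the metabotropic receptor, in Aβ+DFMO against Aβ (log2 ratio −1.29, adjusted p = 0.153 in the authors' deposited table), from about 9 reads.

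**Figure D4:**
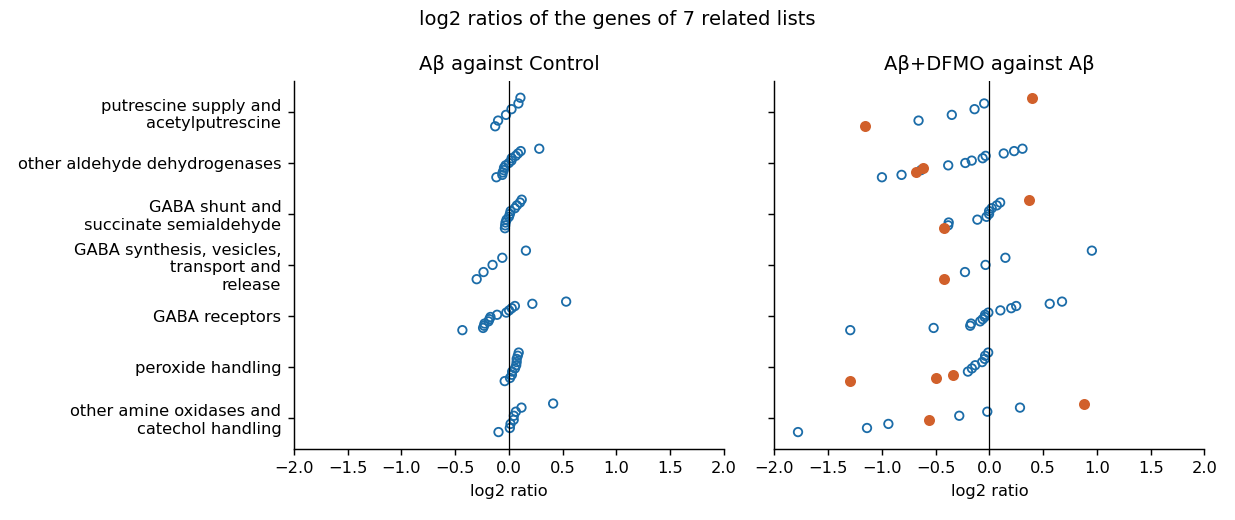
log2 ratios of the measured genes of 7 related lists in both comparisons, 1 point per gene. Filled orange points passed an adjusted p under 0.05 in the authors' deposited table: none do in Aβ against Control, and in Aβ+DFMO against Aβ calls lie on both sides of 0.

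The 3 genes nearest to Maob in both log2 ratios, over the 3 group means and among 10966 other genes with a mean of at least 200, were Rfxap, Wnk3 and Ppm1l, at distances of 0.00233, 0.00545 and 0.00554 on the log2 scale. The implied standard errors of the log2 ratios of Maob, 0.217 and 0.373, are far larger than these distances. Which genes came nearest is therefore not well determined. As many as 1052 genes lay within 0.1 of Maob, so the pattern of Maob was a common one.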

How the data were processed

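Polyadenylated RNA was amplified over 14 cycles and sequenced as pairs of 75 bases, per the labels' protocols. The submitters' processing notes name STAR 2.7.3a, Partek, DESeq2 and FastQC and the builds mm10 and GRCm39, without saying what each was used for. The counting program and the annotation were not given in the sources used here. The deposited table gives each group's least-squares mean, a normalized signal per the file headers, with the authors' ratio, log2 ratio, p-value and adjusted p-value (FDR) for Aβ against Control and Aβ+DFMO against Aβ. The deposited library summary gives the percent of reads in exons per the file headers, 84.4% to 85.2%. A further 14 columns of values per library were not used. A plan to run edgeR if counts per library were present was not needed, since the table holds group means only.

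The deposited log2 ratios equalled the log2 ratio of the means, and the adjusted p-values were Benjamini-Hochberg values over 18783 genes. A gene was called at an adjusted p under 0.05. The implied standard error is the size of the log2 ratio divided by the normal deviate of the authors' p-value, assuming a Wald test, and gives the 95% intervals. The lone Aβ+DFMO library is assumed to vary like the others. Only 1.72% of the p-values of Aβ against Control were under 0.05, fewer than an even spread of p-values would give. The worth of 1 read in the Aβ+DFMO library was taken from 7190 low genes, of which 81.2% were whole multiples within 0.05 of a read, too few for a count test. Read intervals cover counting error only. GC content and length came from the main GENCODE transcript (GRCm38), found for 18592 genes. The GC trend is the running median over 50 bins, and was tested on simulated data. The alternatives were a filter at a mean of 200, a pseudocount of 10, centring on the median gene, and removal of the GC trend alone or with the length trend. Some list members are counted but not reported here by name. Members and lists were chosen with earlier results of these data known. Python 3.11.15, numpy 2.4.6, pandas 2.3.3 and scipy 1.17.1 were used.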

Additional observations from a re-analysis of the deposited data

How the results depend on the processing

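Taking out the trend with transcript GC content lowered the count of genes called in Aβ+DFMO against Aβ from 1724 (751 higher, 973 lower) to 291 (148 higher, 143 lower), and to 298 with the length trend taken out too. The count of the 9 genes called went from 2 to 0 under both. Log2 ratios under the GC trend alone and with length were −0.43 and −0.43 for Aldh2, −0.37 and −0.38 for Aldh7a1, −0.24 and −0.25 for Maoa, whose sign changed, and −0.0058 and −0.0092 for Gad1, whose sign changed. The ratio of Aβ+DFMO to Control with the GC trend taken out was −0.17 for Maoa, whose sign changed, −0.41 for Aldh2, −0.38 for Maob and 0.19 for Aldh1a1. The cause of these moves was not tested. In Aβ against Control no call and no direction of the 9 genes changed under any alternative run. The filter on low values left Gad1 and Slc6a11 without a value. No replicate could be left out, and no paired analysis was possible because the table holds group means and no values per library. Depth limits Gad1, Slc6a11 and Maob most, at about 5, 8 and 28 reads in the Aβ+DFMO library.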

Other observations

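Monoamine oxidases release hydrogen peroxide, and a list of 10 genes of peroxide handling was read, the superoxide dismutase genes Sod1 and Sod2 included. None of the 10 was called in Aβ against Control, and 3 fell and none rose in Aβ+DFMO against Aβ in the authors' DESeq2 table. Of all genes 5.18% were called lower in that comparison. Among genes with a mean of at least 200, 17.6% were called in either direction. The list as a set was not tested. Gpx4, which reduces lipid peroxides, fell by 1.30 and Gpx1, the cytosolic glutathione peroxidase, by 0.50 on the log2 scale in the authors' deposited table. Prdx6, a peroxiredoxin, fell by 0.34 there. With the GC trend taken out Gpx4 (−0.81, adjusted p = 0.0153) and Prdx6 (−0.42, adjusted p = 0.00513) passed, and Gpx1 did not (−0.10, adjusted p = 0.969).

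Among 8 measured genes of other amine oxidases and catechol handling, 1 rose and 1 fell in Aβ+DFMO against Aβ. Of all genes 9.18% were called in that comparison, and 1.57% with the GC trend taken out. Lox, the lysyl oxidase that crosslinks collagen, rose from an authors' mean of 3819 to 7005 (log2 ratio 0.88 in the authors' deposited table), and 0.67 remained with the GC trend taken out. Loxl2, a related oxidase, had 0.28 (adjusted p = 0.0827 in the authors' deposited table) and passed with the GC trend taken out (0.37, adjusted p = 0.0435), where 2 of the 8 rose and none fell.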
